A study of Mus musculus with 120 samples.

Results

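Dendritic cell precursors (preDC) of the bone marrow were taken as all wells listed with 1 sorted cell on the 4 plates whose labels name a bone marrow preDC sort. Members were chosen by the plate label and the listed cell number alone, with no measured value. They comprise 1520 of the 44840 wells listed with 1 cell on the 118 plates of the series with well data, 380 on each marrow preDC plate. The larger count takes in lymph node plates labelled as doublets. The mice were of the strain labelled c57bl and were kept for 2 weeks on a normal diet (ND) or on a diet lacking methionine and choline (MCDD). There were 2 plates per diet, called ND1, ND2, MCDD1 and MCDD2 after their labels. Both diets shared the strain, the tissue, the time and the sort gate, which was CD45+, lineage-negative, CD172α-, CD11c+ and CD135+. The labels do not give the age or sex of the mice, nor whether cells of several mice were pooled or whether the plates of a diet came from separate mice. The p-values below thus take the plate as the unit, and differences between plates can be technical.

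Conventional dendritic cells (cDC) begin in the marrow as common dendritic cell progenitors (CDP), which give rise to preDC. A preDC leaves the marrow through the blood, enters tissues such as the liver and there completes its differentiation into the cDC1 or cDC2 subset. CD135 is the receptor for the growth factor FLT3 ligand, on which this lineage depends, CD11c is an integrin chain carried by dendritic cells, and CD172α is a surface receptor of cDC2 and other myeloid cells, so the gate leaves cells that carry it out. MCDD impairs the export of fat from the liver and serves as a feeding model of steatohepatitis. The marrow sort addresses whether the precursors of dendritic cells already differ on this diet before they reach the liver.

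Each well was measured by 3' single-cell RNA sequencing and is described here by its number of genes detected and its total count. The header calls the second measure total and does not say if reads or molecules were counted. The transcripts of individual genes were not analysed here, so the sorted identity could not be checked against marker genes and no gene can be said to differ. Summed over the 380 cell wells, the total was 7834987 on ND1, 7668202 on ND2, 7449114 on MCDD1 and 9206037 on MCDD2. Per well the depth differed more, with a 25th percentile of the total of 4799.75, 579, 3061.75 and 6296 in the same order. All 4 plates were sequenced in 1 batch with 8 plates of liver cDC and liver preDC. Each plate is its own amplification pool and holds 1 diet, so diet and plate cannot be told apart. The plates carry the same 384 cell barcodes, each in the same well, and are told apart by their 4 pool barcodes. No cell well had the same total and number of genes on the 2 plates of a diet.

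The ND2 plate stood apart from the others by position. Its rows A to I reached medians of 678.5 genes and 20593.5 counts in total, whereas its rows J to P reached 49.5 genes and 564 counts. Of its 144 wells with under 100 genes, 120 lay in rows J to P. The MCDD1 plate had the next widest gap, with 211.5 genes in rows A to I and 75 in rows J to P. On ND1 these medians were 837 and 687 genes, and on MCDD2 254.5 and 241.5. The main results over cell wells are therefore also given for rows A to H, the upper part of the plate, a choice made after these values had been seen. The empty wells lie in rows O and P and have no such value.

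Marrow preDC had fewer genes per well on both MCDD plates than on either normal diet plate. The plate median was 780 genes on ND1 and 414 on ND2, against 153.5 on MCDD1 and 250 on MCDD2. The plates of the 2 diets did not overlap. On the log2 scale the medians differed by -1.54 ± 0.58 (SE, n = 2 plates each), which is 2.90-fold lower on MCDD. With 2 plates against 2 the two-sided exact permutation test cannot go below p = 0.33, which it gave here (adjusted p = 0.524 over 11 diet comparisons), so no diet difference in this sort could be called. In rows A to H the medians were 847.5 and 734.5 genes on normal diet and 210 and 260.5 on MCDD, a log2 difference of -1.75. Leaving out 1 plate gave values between -1.99, without ND2, and -1.08, without ND1.

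**Figure D1:**
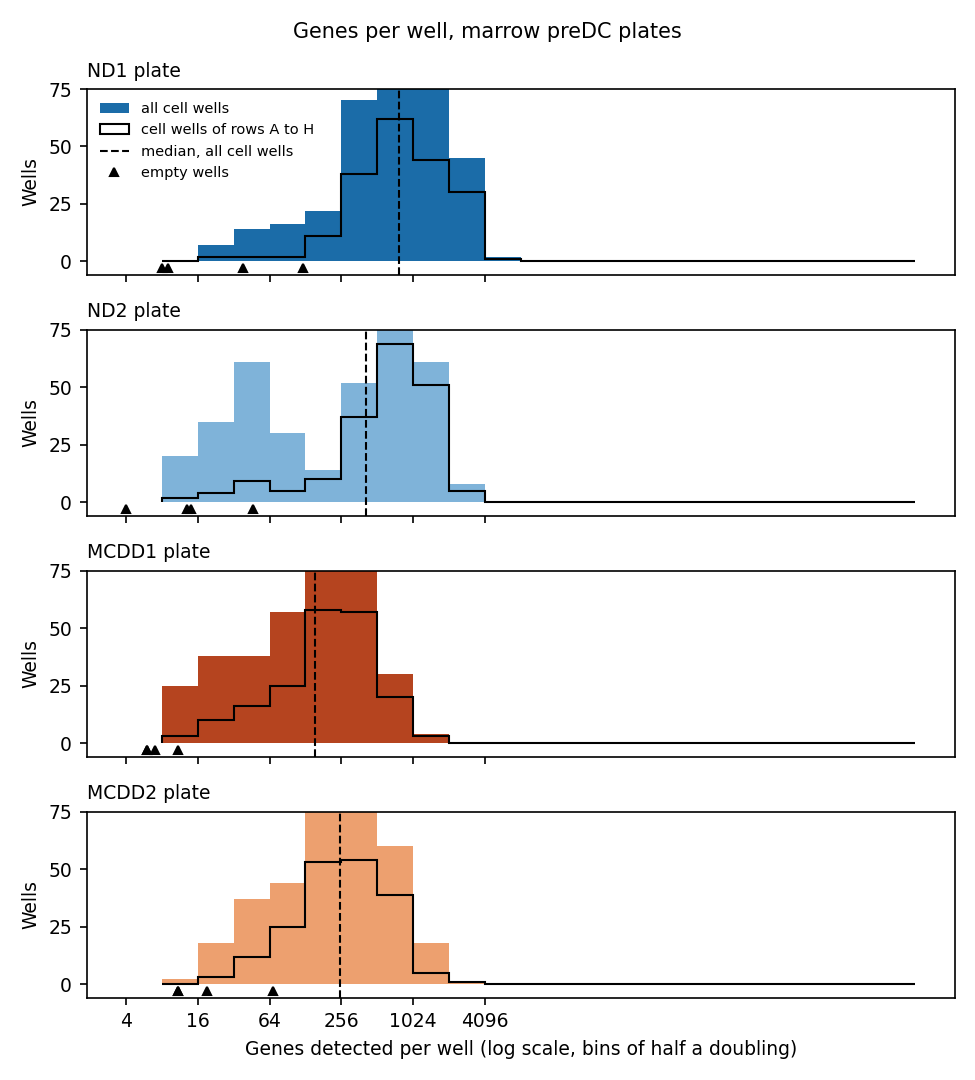
Number of wells (vertical axis) by genes detected per well (horizontal axis, log scale) on the 4 marrow preDC plates. Filled bars are all 380 cell wells, outlines the cell wells of rows A to H, the dashed line the plate median and triangles the 4 empty wells. The median lies at 780 and 414 genes on the ND plates and at 153.5 and 250 on the MCDD plates, and the separate low group of ND2 is nearly absent from rows A to H.

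The shape of the distribution differed between plates of the same diet as well as between diets. ND1 had a single broad peak, with 121 wells between 800 and 1600 genes and 16 wells under 50. ND2 had 2 groups of wells. It held 100 wells under 50 genes, 44 between 50 and 100, 12 between 100 and 200, and 89 between 400 and 800. On MCDD1 there were 92 wells under 50 genes, 46 between 50 and 100, 86 between 100 and 200 and 97 between 200 and 400. On MCDD2 there were 47, 37, 77 and 110 wells in the same bands. Both MCDD plates had fewer wells between 50 and 100 genes than in the bands on either side. The bands differ in width, so these counts alone do not show separate groups of wells on the MCDD plates. The ratio of the 75th to the 25th percentile was 3.28 on ND1, 18.2 on ND2, 5.77 on MCDD1 and 3.64 on MCDD2. In this measure of spread the diets overlapped, and ND2 was the widest.

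The diets overlapped at the lower end of the distribution and were apart at the upper end. The 10th percentile was 136.8 genes on ND1, 22 on ND2, 20 on MCDD1 and 43.9 on MCDD2, so the ND2 wells lay among those of MCDD. The log2 difference of -0.87 ± 1.4 (SE, n = 2 plates each) was smaller than its error, and it was 0.42 without ND1. Over rows A to H alone it was -1.60 and the plates of the 2 diets did not overlap (two-sided exact permutation test, p = 0.33, the smallest it allows). The share of wells with under 100 genes was 9.21% on ND1 (95% Wilson interval 6.70 to 12.5), 37.9% on ND2 (33.2 to 42.9), 36.3% on MCDD1 (31.6 to 41.3) and 22.1% on MCDD2 (18.2 to 26.5). The difference of 5.66 percentage points, MCDD minus ND, had an SE of 16.0. In rows A to H these shares were 2.6% and 9.38% on normal diet and 22.4% and 14.6% on MCDD, and the plates no longer overlapped. These intervals cover counting error only.

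At the upper end the 90th percentile was 2219.3 genes on ND1, 1338.8 on ND2, 494.7 on MCDD1 and 740.3 on MCDD2. Both ND plates lay above both MCDD plates, with a log2 difference of -1.51 ± 0.47 (SE, n = 2 plates each), and -1.48 in rows A to H. The well with most genes had 4329 on ND1 (M10), 3671 on ND2 (D15), 1971 on MCDD1 (B24) and 2536 on MCDD2 (F17). The wells at the top of the MCDD plates had the larger totals, 327629 on MCDD1 and 309560 on MCDD2, against 122379 on ND1 and 230921 on ND2. The well of rank 10 had 3054 and 1992 genes on the ND plates and 744 and 1209 on the MCDD plates.

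High-gene wells made up a larger share of both normal diet plates. At least 1000 genes were detected in 139 of 380 wells on ND1 (36.6%, 95% Wilson interval 31.9 to 41.5) and in 73 on ND2 (19.2%, 15.6 to 23.5). On MCDD1 there were 4 such wells (1.05%, 0.410 to 2.67) and on MCDD2 there were 20 (5.26%, 3.43 to 7.99). These intervals cover counting error within a plate only. Over plates the difference was -24.7 ± 8.94 percentage points (SE, n = 2 plates each; two-sided exact permutation test, p = 0.33, the smallest it allows, adjusted p = 0.524), and it was -16.1 without ND1. In rows A to H the shares were 40.6% and 31.2% on normal diet and 1.56% and 3.12% on MCDD. With 500 genes as the threshold the shares were 67.1% and 43.7% on normal diet and 10.0% and 21.8% on MCDD. At 2000 genes they were 12.9% and 2.37% on normal diet, 0.263% on MCDD2, and 0 of 380 wells on MCDD1, where the Wilson interval reaches 1.00% and a limit of 3 counts allows up to 0.789%. The median of ND1, 780 genes, was exceeded by 109 wells of ND2, 37 of MCDD2 and 6 of MCDD1.

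The high-gene wells of the MCDD plates had a larger total than those of the ND plates. Among wells with at least 1000 genes the median total was 33002 on ND1 and 53044 on ND2, against 142392 on MCDD1 and 98970 on MCDD2. The lowest total of such a well was 11381 on ND1, 15125 on ND2, 124777 on MCDD1 and 53912 on MCDD2. Among wells with a total of at least 32768, 71 of 72 reached 1000 genes on ND1 and 62 of 81 on ND2. On MCDD1 these were 4 of 69 wells and on MCDD2 20 of 83. In percent the shares were 98.6% (95% Wilson interval 92.5 to 99.8), 76.5% (66.2 to 84.4), 5.80% (2.28 to 14.0) and 24.1% (16.2 to 34.3). Here too the intervals cover counting error within a plate only, and these shares were not tested over plates.

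The total count did not separate the diets as the number of genes did. Its plate median was 12924 on ND1, 9323 on ND2, 10807.5 on MCDD1 and 15111.5 on MCDD2, so the diets overlapped. The log2 difference was 0.22 ± 0.34 (SE, n = 2 plates each; two-sided exact permutation test, p = 0.667, adjusted p = 0.733), and it was -0.13 in rows A to H and -0.02 without ND2 or without MCDD2. The 38 wells with the largest totals held 38.5% of the plate's total on ND1, 42.7% on ND2, 41.8% on MCDD1 and 38.9% on MCDD2. In this concentration of the total the diets overlapped too.

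Genes were therefore compared at matched total. Wells were grouped by doublings of the total, and 7 groups between 1024 and 131072 held at least 10 wells on each plate, 1284 wells in all. In all 7 groups both ND plates had a higher median than both MCDD plates. Between 16384 and 32768 the median was 1055 genes on ND1 (91 wells), 749 on ND2 (73 wells), 269 on MCDD1 (78 wells) and 355 on MCDD2 (96 wells). Between 2048 and 4096, where wells are shallow, it was 323 and 133 genes on normal diet and 52 and 49 on MCDD. Between 65536 and 131072 it was 2824 and 1786 genes on normal diet and 687 and 1023 on MCDD. The ratio of the ND mean to the MCDD mean ranged from 2.70 to 4.51 over the 7 groups, and ND1 lay above ND2 in each. The lower ND plate exceeded the higher MCDD plate by 1.69-fold at the least, between 1024 and 2048. There the medians were 164 genes on ND1, 61 on ND2, 23 on MCDD1 and 36 on MCDD2, so the ND plates also lay far apart.

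**Figure D2:**
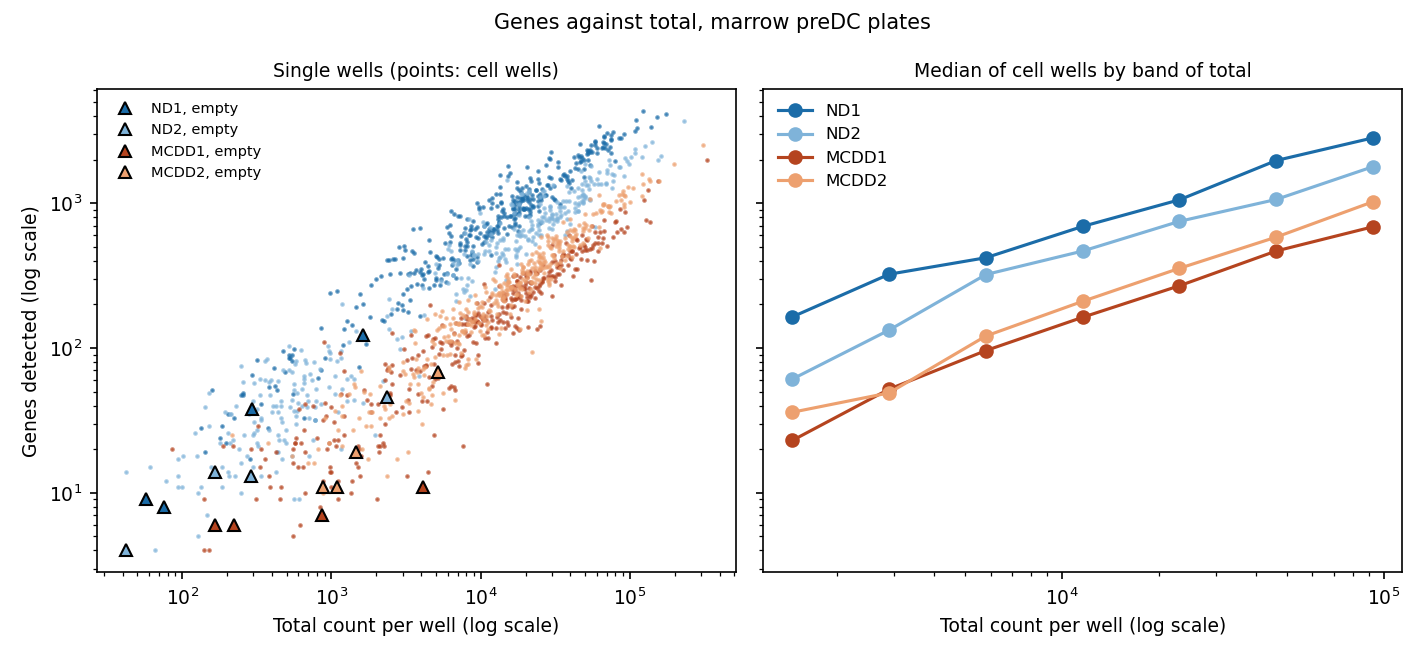
Genes detected against total count, both on log scales. Left, single wells of the 4 marrow preDC plates, with the 16 empty wells as triangles; right, the median genes of cell wells in each doubling of the total, 1 line per plate. Both ND lines lie above both MCDD lines in all 7 groups. The ratio of the ND mean to the MCDD mean is 4.51 between 2048 and 4096 and 2.70 between 65536 and 131072.

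Averaged over the 8 narrower groups, each 0.5 wide on the log2 scale of the total, that held at least 10 wells on each plate, genes at matched total differed by -1.54 ± 0.38 on the log2 scale (SE, n = 2 plates each). This is 2.91-fold lower on MCDD, with the smallest p the two-sided exact permutation test allows (p = 0.33, adjusted p = 0.524). In rows A to H the difference was -1.58. Without ND2 it was -2.03 and without ND1 -1.18. Within a plate, log2 genes and log2 total were closely related over the 380 wells, with Pearson's r of 0.967 on ND1, 0.968 on ND2, 0.939 on MCDD1 and 0.956 on MCDD2. The slope of this relation was 0.73 on both ND plates, 0.74 on MCDD1 and 0.84 on MCDD2, so a doubling of the total brought less than a doubling of genes on each plate.

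The same difference appeared in the genes detected per 1000 counts of total. The plate median was 57.2 on ND1 and 40.8 on ND2, against 13.2 on MCDD1 and 15.8 on MCDD2. The log2 difference was -1.74 ± 0.28 (SE, n = 2 plates each), 3.34-fold lower on MCDD, and the exact permutation test again gave its smallest p of 0.33 (adjusted p = 0.524). The 10th percentile of the ND wells, 38.3 on ND1 and 21.1 on ND2, lay above the 75th percentile of the MCDD wells, 18.8 on MCDD1 and 19.2 on MCDD2. In rows A to H the plate medians were 55.4 and 30.0 on normal diet and 11.9 and 15.5 on MCDD, so ND2 came nearer to the MCDD plates but stayed above them. The value varies with the total, as the slopes below 1 show, and the shallow rows J to P of ND2 had a median of 67.9.

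The diets were also compared within each row and column, since plate position moved with genes and totals. By rows, both ND plates had more genes per 1000 total than both MCDD plates in 16 of 16 rows, and by columns in 24 of 24. For the number of genes alone this held in 9 of 16 rows, rows A to I, and in 17 of 24 columns. Genes per 1000 total varies with the total, and in each of rows J to P ND2 had the lowest median total of all marrow preDC plates. In row P it had a total of 236 and 152 genes per 1000 total. MCDD1 had 627 and 33.0 there, and MCDD2 10321.5 and 16.7. In these rows, and in columns that include them, the diets were thus not compared at like depth. Rows and columns of a plate are not replicates, and these counts are descriptions. In row C, for example, the median was 919.5 and 959.5 genes on normal diet and 400.5 and 378 on MCDD, at median totals of 17840, 38112, 40399.5 and 25177.5 in the same order. In row M, where ND2 had a median total of 677, it was 1026 and 43.5 genes on normal diet and 206.5 and 324 on MCDD.

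**Figure D3:**
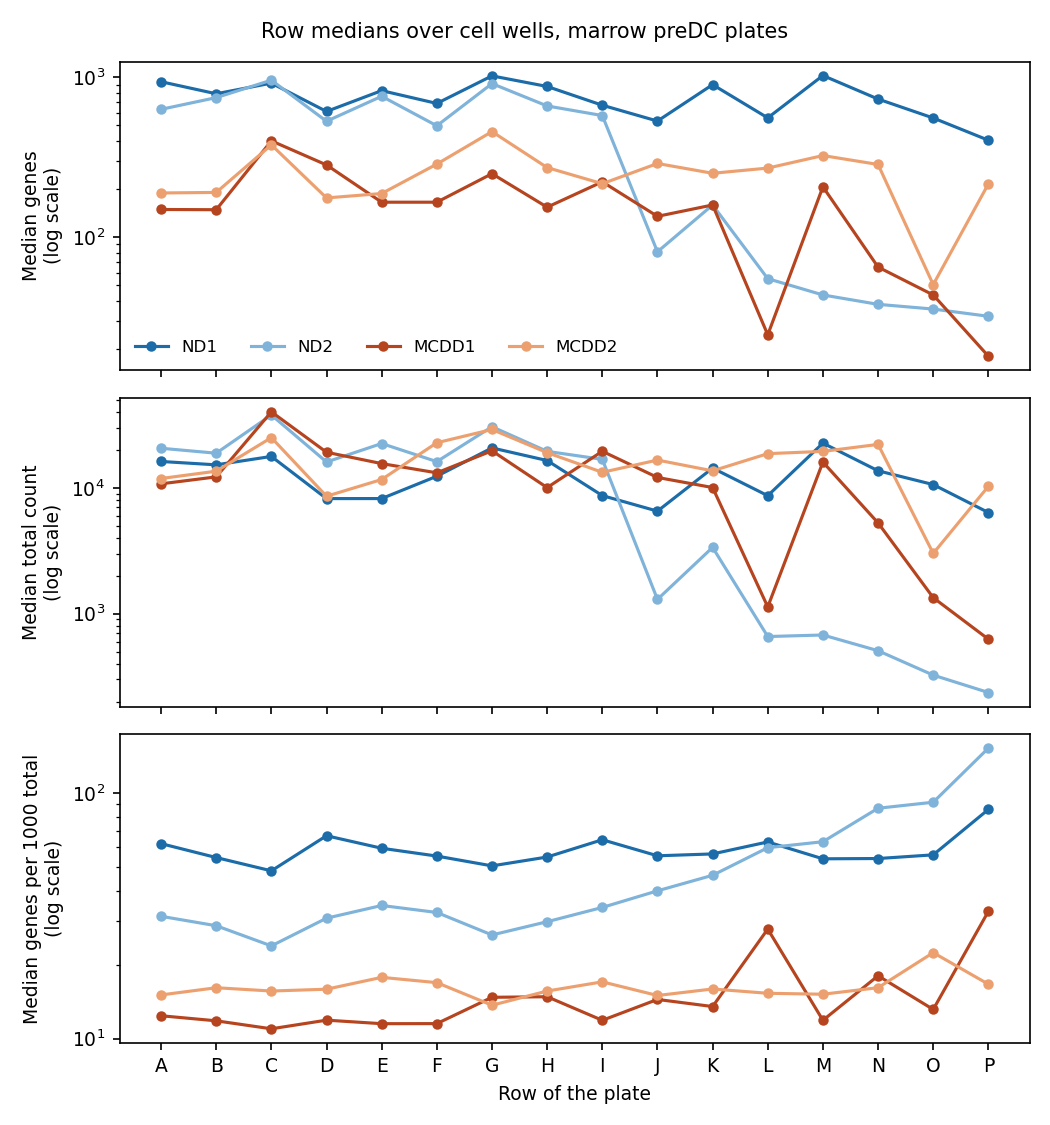
Median genes, median total and median genes per 1000 total (vertical axes, log scale) of the cell wells in each row A to P of the 4 marrow preDC plates. Genes and total of ND2 drop from row J on, those of MCDD1 in rows L, N, O and P and those of MCDD2 in row O, whereas in genes per 1000 total both ND plates lie above both MCDD plates in 16 of 16 rows. That value varies with the total, which is lowest on ND2 in each of rows J to P.

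The wells listed as empty gave the background of each plate. The 4 empty wells of a plate, at positions O1, O2, P1 and P2, had totals of 1629, 57, 293 and 76 on ND1 and 2345, 287, 165 and 42 on ND2. On MCDD1 the totals were 4131, 865, 165 and 223, and on MCDD2 5202, 872, 1469 and 1097. Well O1 had the highest total on each plate. The plate medians of 184.5 and 226 on normal diet lay below those of 544 and 1283 on MCDD, a log2 difference of 2.03 ± 0.64 (SE, n = 2 plates each; two-sided exact permutation test, p = 0.33, adjusted p = 0.524). Without O1 it was 2.13, and with 1 plate left out it lay between 1.41 and 2.65. The median total of cell wells was 70.0 and 41.3 times that of the empty wells on normal diet, and 19.9 and 11.8 times on MCDD.

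The larger totals of the empty MCDD wells did not come with more genes. In the same order of wells they numbered 122, 9, 38 and 8 on ND1, 46, 13, 14 and 4 on ND2, 11, 7, 6 and 6 on MCDD1 and 68, 11, 19 and 11 on MCDD2. The plate medians of 23.5 and 13.5 on normal diet and 6.5 and 15 on MCDD overlapped, with a log2 difference of -0.78 ± 0.66 (SE, n = 2 plates each) that was -0.24 without MCDD1. Per 1000 counts of total, the empty wells had a plate median of 117 and 65.1 genes on normal diet and 17.5 and 12.8 on MCDD. The log2 difference of -2.55 ± 0.48 (SE, n = 2 plates each) has the direction of that in cell wells. This value varies with the total, which was higher in the empty MCDD wells, and 4 wells a plate are too few to match by total. With the plate's median empty-well total subtracted from each cell well, the log2 difference in genes per 1000 total was -1.61, against -1.74 before. Cell wells left with no total were dropped for this value. The genes of the background were not subtracted, and their part in the difference between cell wells was not tested.

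Some cell wells could not be told from empty ones by their yield. Cell wells with no more genes than the highest empty well of their plate numbered 37 of 380 on ND1, 94 on ND2, 15 on MCDD1 and 62 on MCDD2. Measured by total, the shares at or below the highest empty well were 11.6% on ND1, 38.7% on ND2, 28.7% on MCDD1 and 21.1% on MCDD2. The highest empty well had 122 genes on ND1, 46 on ND2, 11 on MCDD1 and 68 on MCDD2. It was O1 on each plate, so each cut-off rests on 1 well. The next highest had 38, 14, 7 and 19 genes in the same order. The diets overlapped in both measures, but at such unlike cut-offs these values do not compare the diets. Among wells with at least 100 genes the log2 difference was -1.50 in the plate median of genes and -1.51 in genes at matched total. That filter uses the measure compared and leaves out 9.21% to 37.9% of a plate's wells, so these values describe the remaining wells only.

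Other sorts of the lineage were used to see whether the gap was also present there. Liver preDC, sorted by the same gate and sequenced in the same batch, had plate medians of 525 and 502 genes on normal diet and 550.5 and 486.5 on MCDD. Their genes per 1000 total were 46.6 and 38.3 on normal diet and 38.7 and 29.9 on MCDD. The log2 difference between diets in liver preDC was 0.01 ± 0.09 (SE) in genes and -0.31 ± 0.23 (SE) in genes per 1000 total, with n = 2 plates each. Marrow preDC differed from this by -1.55 ± 0.58 (SE) in genes and -1.43 ± 0.36 (SE) in genes per 1000 total. At matched total, over 6 groups shared by 8 plates, the diet differences were -1.57 in marrow and -0.19 in liver preDC. None of these differences between the sorts passed the two-sided exact permutation test, whose smallest p is 0.056 (p = 0.167, 0.278 and 0.278, adjusted p = 0.317 for each over 8 such comparisons). For the share of wells with at least 1000 genes, 14.5% and 12.4% of liver preDC on normal diet against 11.8% and 10.0% on MCDD, the difference between the sorts was -22.2 percentage points (exact permutation test, p = 0.33), or -13.6 without ND1.

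**Figure D4:**
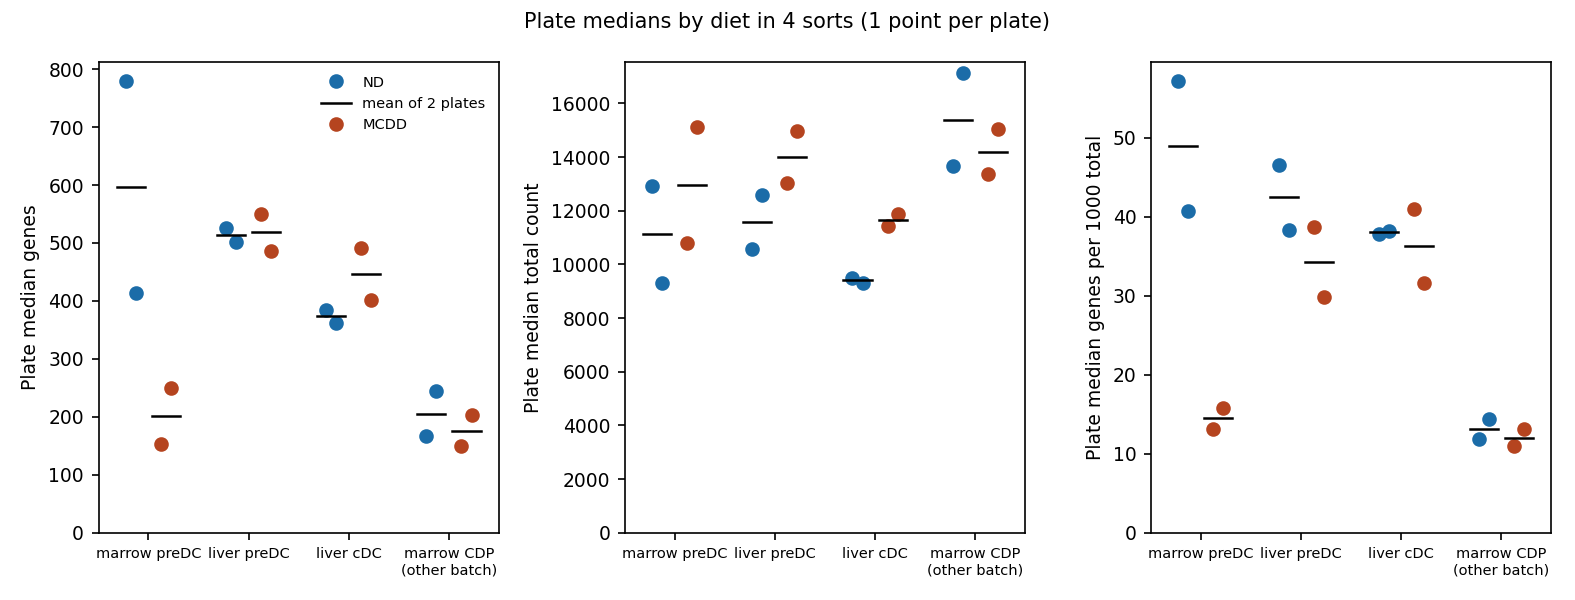
Plate medians of genes, total count and genes per 1000 total by diet in marrow preDC, liver preDC, liver cDC and marrow CDP, 1 point per plate and a bar for the mean of 2 plates. The MCDD plates of marrow preDC, at 13.2 and 15.8 genes per 1000 total, lie apart from the other plates of their batch and near the marrow CDP, which were sequenced in another batch.

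Within the sequencing batch, the 8 liver plates had between 29.9 and 46.6 genes per 1000 total, whatever their diet. The MCDD plates of marrow preDC lay below this range, ND2 lay inside it and ND1 above it. The plate median totals of the liver plates, 9296 to 14973, covered those of ND1, ND2 and MCDD1, and MCDD2 was slightly higher at 15111.5. Marrow CDP, the stage before preDC, had 11.9 and 14.4 genes per 1000 total on normal diet and 11.0 and 13.1 on MCDD, in another sequencing batch. The MCDD plates of marrow preDC thus came near the values of CDP on both diets, and stage and batch cannot be told apart in that comparison. Nor was this nearness particular to CDP. The 73 plates of other batches in the same table, CDP among them, had plate medians of 3.22 to 38.5, with a median of 11.0. The diet difference in genes of marrow preDC differed from that of CDP by -1.32 ± 0.67 and from that of liver cDC by -1.79 ± 0.60 on the log2 scale (SE), and the first of these was -0.86 without ND1. The exact permutation test gave p = 0.278 and 0.056, the latter the smallest it allows, and both had an adjusted p of 0.317. Over rows A to H alone both differences were -2.01, and that from liver preDC was -1.70. Among all 85 plates of the same table, ND1 had the most genes per 1000 total and the highest plate median of genes.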

How the data were processed

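Per the labels' protocols, cDNA of each sorted cell was barcoded in its well, pooled by plate and amplified by T7 transcription. The submitters' processing notes name bcl2fastq 2.15.0.4 and the mouse build mm10. How reads were aligned, counted and filtered is not given in the sources used. The deposited values are whole-number counts per well, namely the genes detected and the total count, not normalized for depth. The sample titles link the plates to labels.

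Plate medians, percentiles and shares were computed over 380 cell wells and medians over 4 empty wells. Genes at matched total is the median of log2(genes + 1) within groups of log2 total 0.5 wide holding at least 10 wells on each plate, averaged over groups. Log2 values of percentiles, of the genes and totals of empty wells, and of genes in the slopes and correlations with total also carry a pseudocount of 1. So do the alternatives with wells of middle total or with log2 values averaged over wells. Other log2 values carry none. Cells are not replicates, so plates were compared by two-sided exact permutation tests, with diet labels permuted within sort between sorts. Benjamini-Hochberg adjustment covered 11 diet comparisons and, separately, 8 comparisons with other sorts. SE pools the variance between plates over the diets. The members and comparisons were chosen with earlier results of these data known. Genes per 1000 total between sorts and in empty wells, the matched total against liver preDC, rows A to H, the empty wells without O1 and the crossed pairing were added after the values had been seen. The rule for named items named no gene, only the empty wells and the well with most genes on each plate. The plate median of genes, genes per 1000 total and genes at matched total were run on simulated plates with no position effect. The last 2 of these were checked against the known fold. The test between sorts was checked on a case counted by hand, and the other statistics were not simulated. The work was done in Python 3.11.15 with scipy 1.17.1 for intervals, numpy 2.4.6, matplotlib 3.10.9 and pandas 2.3.3.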

Additional observations from a re-analysis of the deposited data

How the results depend on the processing

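With 2 plates per diet no setting could pass the threshold, so the alternatives bear on direction and size alone. Of 144 alternative values of 19 results, leaving out the pairings below, 6 had the opposite sign, in 3 results; the other 16 results kept their direction under every alternative run. The plate median total turned to -0.13 on the log2 scale in rows A to H, and without a single plate it ranged from -0.022 (MCDD2) to 0.461 (MCDD1). The 10th percentile of genes ranged from -2.17 (without ND2) to 0.42 (without ND1). The share with under 100 genes ranged from -8.68 percentage points (without ND1) to 20.0 (without ND2), and was 23.4 at a threshold of 200 genes. The difference in high-gene wells (1000 genes or more) ranged from -33.4 percentage points (without ND2) to -16.1 (without ND1), and was -39.5 at 500 genes and -7.5 at 2000 genes. Genes at matched total was -1.79 among wells of middle total, and genes per 1000 total was -1.61 with the empty wells' total subtracted. The cause of these shifts was not tested.

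Plates of the 2 diets share the numbers 1 and 2, but no label says that a number marks a shared mouse or day. Over 380 wells the deviations of ND1 and MCDD1 from the means of their diets correlated at r = -0.20. With the replicate block the values are the same by construction (-1.54 for the plate median of genes), and 0 of 11 diet comparisons passed, since the smallest p was 0.5. The crossed pairing likewise gave 0 calls. Depth per well limits the lower end: each plate held cell wells with no more genes than its highest empty well, and these could not be told from failed wells.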

Other observations

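Rows J to P gave fewer genes than rows A to I on 11 of the 12 plates of the sequencing batch, an observation made after the plates had been seen. The ratio of the medians of the upper to the lower rows was 13.7 on ND2 and 2.82 on MCDD1 of marrow preDC, and 2.31 on the ND2 plate of liver cDC. The exception was the ND1 plate of liver cDC, at 0.995. Over wells in the same position, the genes of marrow preDC plates ranked together most closely for ND2 and MCDD1, with Spearman's rho of 0.42 over 380 wells, which share position and barcode. For the other 5 pairs of plates rho lay between 0.21 and 0.27.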
